A study of Drosophila melanogaster with 12 samples.

Results

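The change in the brain transcriptome that goes with TDP-43 expression was measured in flies whose Atx2 was knocked down at the same time. The comparison set 3 libraries of TDP-43 flies with the Atx2 hairpin against 3 libraries of control flies with the same hairpin, which are 6 of the 12 libraries of the series. All genes were taken, and 10738 of the 17562 genes in the count table passed a filter on low counts and were tested. TDP-43 flies carried the daughterless GeneSwitch driver (DaGS), the TDP-43(52s) transgene and the Atx2RNAi hairpin (BL44012). Control flies carried the driver and that hairpin and are labelled with no TDP-43 transgene, so both groups had Atx2 RNAi. All were males collected 1 to 2 days after eclosion from crosses at 25 °C and kept 6 days on food with RU486, the drug that switches the driver on. Brains were taken and polyA RNA was sequenced. In the other 6 libraries a hairpin against mCherry (BL35785), a protein that flies lack, took the place of the Atx2 hairpin, and these serve here to show where the TDP-43 change differed. Each group has 3 libraries labelled as biological replicates. The sources used here do not give the number of brains behind a library. The driver follows daughterless, which is active in most cells, so it is not limited to neurons. The series title speaks of sleep that TDP-43 disturbs and that Ataxin-2 knockdown restores, and the comparison asks what TDP-43 still changes in the brain when Atx2 is low.

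TDP-43 is an RNA-binding protein that normally sits in the nucleus, where it controls splicing and its own transcript level. It gathers in cytoplasmic inclusions in motor neuron disease and frontotemporal dementia. Ataxin-2, the product of Atx2, binds the polyA-binding protein in the cytoplasm, takes part in stress granules and modifies TDP-43 toxicity in yeast and flies. In fly clock neurons it also promotes translation of the clock protein PER.

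The 6 libraries held 31726136, 40792054 and 38240673 counts in TDP-43 flies, against 43714499, 29184618 and 36005571 counts in control flies. Levels are given in CPM, which sets each count against the scaled total of its library, in the order of replicates 1, 2 and 3 or as mean ± SD (n = 3), and positions are those of genome Release 6 (dm6). Brackets after a level hold the log2 ratio of TDP-43 over control with its SE, then the p from edgeR's quasi-likelihood fit adjusted over all genes tested by the Benjamini-Hochberg method, and a gene is called when that p is below 0.05. In bulk brain RNA, fewer cells of a type and less RNA per cell cannot be told apart. All 15 neuron markers and all 10 glia markers were detected. The summed neuron markers stood at 16570 to 17030 CPM in TDP-43 flies and 17300 to 18590 CPM in control flies. The summed glia markers were lower as well, at 3271 to 3432 CPM in TDP-43 flies and 3605 to 3676 CPM in control flies. Summed markers of tissues next to the brain were uneven. Gut markers reached 627.6 CPM in TDP-43 replicate 2, against 7.84 to 46.7 CPM in the other 5 libraries. Photoreceptor markers ran from 1552 to 3254 CPM in TDP-43 flies and from 1561 to 4474 CPM in control flies. Fat body markers stood at 4322 to 6969 CPM in TDP-43 flies, above the 3153 to 3323 CPM of control flies. This set of 10 includes Yp1, Yp2, Yp3 and fit, described below, which were its only 4 markers called higher. The sum is therefore not a measure of fat body tissue apart from those genes. TDP-43 replicate 2 also lay furthest from its group on the first 2 principal components of the 12 libraries.

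The hairpin target did not differ between the groups beyond the spread of the libraries. Atx2 (3R, 15408423 to 15417277) stood at 144, 163 and 155 CPM in TDP-43 flies, against 152, 166 and 162 CPM in control flies (-0.05 ± 0.06, edgeR adjusted p = 0.593), and the groups overlapped. With mCherry RNAi it stood at 267, 304 and 289 CPM in TDP-43 flies, against 363, 343 and 345 CPM in control flies, so all 6 libraries with the Atx2 hairpin lay below all 6 without it. TBPH (2R, 23859067 to 23862593), which encodes the fly's own TDP-43, stood at 78.8, 81.1 and 76.7 CPM in TDP-43 flies, against 142, 138 and 145 CPM in control flies (-0.84 ± 0.06, edgeR adjusted p = 7.01e-07). Each TDP-43 library was below each control library for TBPH. The human transgene itself has no row in the table and was not analysed. For w, an eye pigment gene carried by many transgenes, the levels were 2076, 2077 and 1985 CPM in TDP-43 flies, against 11.9, 12.7 and 15.1 CPM in control flies (7.27 ± 0.11, edgeR adjusted p = 1.22e-12). For y, a body pigment gene also used to mark insertions, they were 63.1, 66.8 and 61.5 CPM in TDP-43 flies, against 33.6, 19.0 and 16.9 CPM in control flies (1.46 ± 0.34, edgeR adjusted p = 0.016). Its call was lost without control replicate 2 (edgeR adjusted p = 0.0612) or 3 (0.0625) and with the replicate number as a block in the 6 libraries (0.071). Genetic background and the TDP-43 transgene cannot be told apart in this design.

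With Atx2 RNAi, TDP-43 flies differed from control flies in a broad set of mostly small changes. The clock genes tim, vri and per, dopamine receptor genes, Hsp70 genes and Atg1 were higher in TDP-43 flies, and so were the yolk protein genes, by a wide margin. The light receptor gene cry, 16 of the 17 called neuropeptide genes and 55 of 84 ribosomal protein genes were lower. In all, 2413 of 10738 genes (22.5%) were called, 1294 higher (12.1%) and 1119 lower (10.4%). Of these, 610 were more than 2-fold higher and 100 more than 2-fold lower, which are 5.68% and 0.931% of all genes tested. Of all calls, 56.5% were under 1.5-fold. Called changes had a median size of 0.47 (log2), and the median change over all genes tested was -0.01. The libraries of the 2 groups did not overlap in 4707 genes (43.8%), and in 2404 of the 2413 called genes. With 1 library left out 1616 to 1813 genes were called, and the lower count was 661 without TDP-43 replicate 2 and 681 without control replicate 3. The shares of all genes are the background for the gene lists that follow, and a list with a share near 22.5% did not stand out from all genes.

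**Figure D1:**
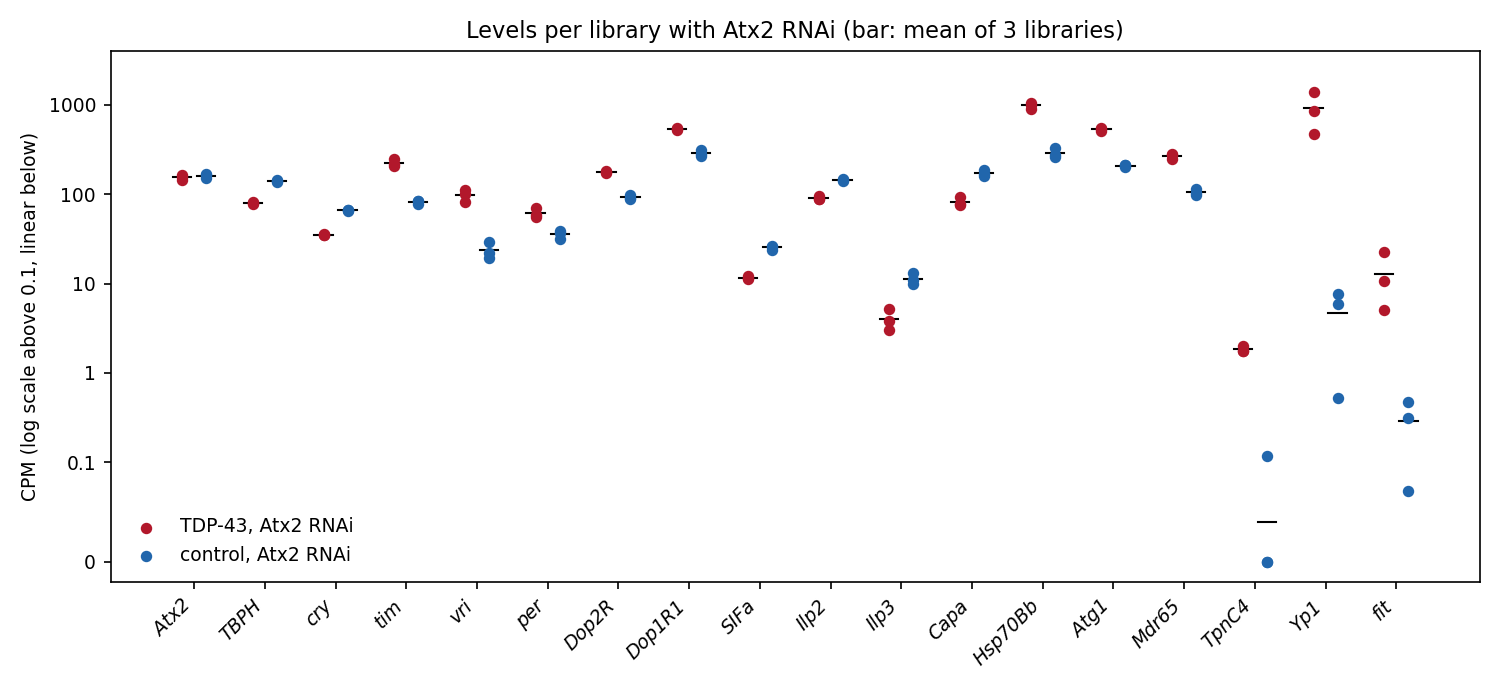
Level of 18 genes in each library with Atx2 RNAi, in CPM on an axis that is logarithmic above 0.1 and linear below, TDP-43 flies left of control flies for each gene, with the mean of 3 libraries as a bar. The groups overlap for Atx2 and are separate for the other 17 genes. The TDP-43 libraries of Yp1 span 470.1 to 1394 CPM.

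The molecular clock of the fly is a loop in which Clk and cyc switch on per, tim and vri, whose products then hold Clk in check, and cry carries light information to it. Among clock genes, 5 rose and 8 fell of 25 tested, or 52.0%, with a median log2 fold change of -0.10. With 1 library left out, 4 rose and 4 fell without TDP-43 replicate 1, control replicate 1 or control replicate 3 and 4 rose and 3 fell without TDP-43 replicate 2. The gene for the TIM protein, tim (2L, 3493986 to 3508119), stood at 205, 244 and 219 CPM in TDP-43 flies, against 77.4, 84.7 and 83.0 CPM in control flies (1.45 ± 0.13, edgeR adjusted p = 3.09e-05). The repressor gene vri (2L, 5288944 to 5311223) stood at 110.0, 101 and 81.6 CPM in TDP-43 flies, against 22.2, 29.3 and 19.3 CPM in control flies (2.05 ± 0.27, edgeR adjusted p = 0.000614). For per (X, 2685580 to 2692780), whose translation Ataxin-2 promotes, the levels were 58.1, 70.4 and 55.6 CPM in TDP-43 flies, against 31.8, 38.4 and 37.1 CPM in control flies (0.78 ± 0.13, edgeR adjusted p = 0.00115). In all 3 the TDP-43 libraries lay above every control library. The photoreceptor protein gene cry (3R, 19212154 to 19215442) went the other way, with 34.5, 34.5 and 36.1 CPM in TDP-43 flies, against 67.2, 64.5 and 66.9 CPM in control flies (-0.92 ± 0.07, edgeR adjusted p = 2.33e-06). The activator gene Clk rose too, to 25.4 ± 2.91 CPM in TDP-43 flies, against 15.2 ± 1.26 CPM in control flies (0.74 ± 0.17, edgeR adjusted p = 0.0107). Its partner cyc was not called, at 43.6 ± 2.39 CPM in TDP-43 flies, against 41.8 ± 2.51 CPM in control flies (0.06 ± 0.06, edgeR adjusted p = 0.533). The repressor gene cwo stood at 87.2, 87.5 and 84.4 CPM in TDP-43 flies, against 51.5, 62.8 and 63.7 CPM in control flies (0.54 ± 0.16, edgeR adjusted p = 0.0377). The call of cwo was lost without any 1 of the 6 libraries (edgeR adjusted p = 0.065 to 0.124) and with the replicate number as a block (0.071).

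The peptide by which clock neurons signal, and its receptor, were both lower. Pdf, the gene of that peptide, stood at 112, 106 and 134 CPM in TDP-43 flies, against 178, 165 and 193 CPM in control flies (-0.61 ± 0.14, edgeR adjusted p = 0.0121), and Pdfr, the receptor gene, at 66.0, 67.7 and 70.7 CPM in TDP-43 flies, against 85.9, 80.0 and 81.9 CPM in control flies (-0.28 ± 0.06, edgeR adjusted p = 0.0063). The call of Pdf was lost without TDP-43 replicate 2 (edgeR adjusted p = 0.0523) or control replicate 3 (0.0511). The time of day at which brains were taken is not stated in the sources used here, so a shift in clock time between the groups was not tested. With mCherry RNAi, in other libraries, tim stood at 175 ± 28.7 CPM in TDP-43 flies, against 92.7 ± 13.2 CPM in control flies with mCherry RNAi (0.92 ± 0.13, edgeR adjusted p = 0.00038) and vri at 71.9 ± 23.7 CPM in TDP-43 flies, against 17.2 ± 2.89 CPM in control flies with mCherry RNAi (2.06 ± 0.27, edgeR adjusted p = 0.000389). For per the change was 0.20 ± 0.13 (edgeR adjusted p = 0.239) with mCherry RNAi, where it was not called. The difference between the hairpins was 0.58 ± 0.18 for per and 0.53 ± 0.18 for tim, and neither difference was called (edgeR adjusted p = 0.168 and 0.214).

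Among sleep genes, 11 rose and 21 fell of 56 tested, or 57.1%, with a median of -0.12. With 1 library left out, 7 rose and 11 fell without TDP-43 replicate 2, 7 rose and 14 fell without TDP-43 replicate 3, 9 rose and 12 fell without control replicate 2 and 6 rose and 11 fell without control replicate 3. Dopamine keeps flies awake, and 3 of its receptor genes rose. Dop2R (X, 20004680 to 20062706), the gene of the inhibitory receptor, stood at 183, 174 and 174 CPM in TDP-43 flies, against 88.8, 97.8 and 90.7 CPM in control flies (0.94 ± 0.05, edgeR adjusted p = 7.54e-08). Dop1R1, the gene of a receptor that raises cAMP and promotes waking, stood at 526, 532 and 543 CPM in TDP-43 flies, against 265, 308 and 282 CPM in control flies (0.90 ± 0.09, edgeR adjusted p = 1.66e-05). Both receptor genes were higher in every TDP-43 library than in any control library. Dop1R2 rose less (0.31 ± 0.05, edgeR adjusted p = 0.00148). The tumour necrosis factor gene egr, which acts from glia in sleep control, stood at 90.0, 94.4 and 107 CPM in TDP-43 flies, against 44.9, 45.9 and 46.2 CPM in control flies (1.09 ± 0.07, edgeR adjusted p = 6.5e-07). The GABA transporter gene Gat, expressed in astrocytes, fell to 368 ± 4.70 CPM in TDP-43 flies, against 486 ± 7.70 CPM in control flies (-0.40 ± 0.05, edgeR adjusted p = 0.000127). AANAT1, which encodes an enzyme that acetylates monoamines, fell too (-0.33 ± 0.05, edgeR adjusted p = 0.00096). Among monoamine receptor genes, 5 rose and 3 fell of 17 tested (47.1%), while 4 rose without TDP-43 replicate 1, TDP-43 replicate 2 or control replicate 3, 4 rose and 1 fell without TDP-43 replicate 3 or control replicate 1 and 5 rose without control replicate 2. Octbeta2R, an octopamine receptor gene, rose (0.35 ± 0.08, edgeR adjusted p = 0.00598).

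Of 42 tested neuropeptide genes, 1 rose and 16 fell, or 40.5%, with a median of -0.23. With 1 library left out, 1 rose and 8 fell without TDP-43 replicate 2 and 1 rose and 9 fell without control replicate 3. SIFa (2R, 24577566 to 24578143), the gene of a peptide made by a handful of brain neurons that govern feeding and sleep, stood at 12.1, 11.4 and 11.2 CPM in TDP-43 flies, against 23.7, 25.6 and 26.5 CPM in control flies (-1.13 ± 0.10, edgeR adjusted p = 1.16e-05). Capa, which encodes diuretic peptides, stood at 93.3, 78.3 and 75.0 CPM in TDP-43 flies, against 167, 184 and 161 CPM in control flies (-1.05 ± 0.14, edgeR adjusted p = 0.000479). NPF, the fly counterpart of neuropeptide Y, stood at 82.6, 74.9 and 70.8 CPM in TDP-43 flies, against 112, 109 and 106 CPM in control flies (-0.52 ± 0.08, edgeR adjusted p = 0.000603). In each the TDP-43 libraries lay below every control library. Mip, the gene of a sleep-promoting peptide family, fell to 162 ± 9.18 CPM in TDP-43 flies, against 213 ± 2.28 CPM in control flies (-0.40 ± 0.07, edgeR adjusted p = 0.00115), and Tk, the tachykinin gene, to 119 ± 1.41 CPM in TDP-43 flies, against 152 ± 6.46 CPM in control flies (-0.35 ± 0.08, edgeR adjusted p = 0.00669). The summed transcripts of all 50 listed peptide genes made up 0.450%, 0.379% and 0.404% of counts in TDP-43 flies, against 0.467%, 0.446% and 0.454% in control flies. The library with the lowest share, TDP-43 replicate 2, was also the one with the most gut transcripts, and the part this had in the fall was not tested. Of the genes that process and release peptides, 2 fell of 10 tested, a share near the 22.5% of all genes, so this list did not stand out. Cadps, needed for release of dense-core vesicles, fell (-0.23 ± 0.05, edgeR adjusted p = 0.00487).

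The insulin-like peptides made in the same median cells of the brain moved apart. Ilp2 stood at 94.6, 87.8 and 87.7 CPM in TDP-43 flies, against 146, 145 and 139.6 CPM in control flies (-0.67 ± 0.07, edgeR adjusted p = 4.39e-05). Ilp3 stood at 5.15, 3.82 and 2.99 CPM in TDP-43 flies, against 9.99, 13.01 and 11.01 CPM in control flies (-1.51 ± 0.21, edgeR adjusted p = 0.000276). Ilp5 went up, with 35.7, 32.9 and 29.8 CPM in TDP-43 flies, against 16.9, 22.2 and 22.6 CPM in control flies (0.68 ± 0.11, edgeR adjusted p = 0.000962). None of the 3 overlapped between groups, and Ilp2 and Ilp3 were lower while Ilp5 was higher. InR, the insulin receptor gene, stood at 189.7, 158 and 173 CPM in TDP-43 flies, against 122, 108 and 102 CPM in control flies (0.65 ± 0.07, edgeR adjusted p = 6.62e-05). Of 31 insulin and nutrient signalling genes, 8 rose and 3 fell, or 35.5%. Those that rose include rictor, a subunit of the TORC2 kinase complex (0.31 ± 0.05, edgeR adjusted p = 0.00102), and the TOR-controlled transcription factor gene REPTOR (0.20 ± 0.04, edgeR adjusted p = 0.00288).

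Synaptic genes moved little. Of the synaptic vesicle and active zone list, 3 rose and 10 fell of 43 tested, or 30.2%, with a median of -0.06, while 2 rose and 6 fell without TDP-43 replicate 3. Sytalpha, a synaptotagmin gene, fell (-0.40 ± 0.05, edgeR adjusted p = 0.000106), as did VAChT, which fills cholinergic vesicles (-0.25 ± 0.05, edgeR adjusted p = 0.00553), and VGlut, which fills glutamatergic ones (-0.19 ± 0.04, edgeR adjusted p = 0.00622). Nlg4, a neuroligin gene linked to synapse formation and sleep, rose (0.32 ± 0.05, edgeR adjusted p = 0.000579). Among channel genes, 3 rose and 10 fell of 38 tested (34.2%). The inward rectifier potassium channel gene Irk2 stood at 115.3, 125 and 119 CPM in TDP-43 flies, against 176, 189 and 192 CPM in control flies (-0.64 ± 0.05, edgeR adjusted p = 4.37e-06). The gene unc79, which encodes a subunit of the sodium leak channel complex of clock neurons, stood at 664, 716 and 682 CPM in TDP-43 flies, against 1042, 1115 and 1053 CPM in control flies (-0.64 ± 0.06, edgeR adjusted p = 1.22e-05), and its partner gene unc80 fell less (-0.27 ± 0.06, edgeR adjusted p = 0.00465). In Irk2 and unc79 every TDP-43 library was below every control library. Of the nicotinic acetylcholine receptor genes, 2 rose and 2 fell of 10 tested (40.0%). The subunit gene nAChRalpha3 stood at 349, 367 and 368 CPM in TDP-43 flies, against 175, 196 and 183 CPM in control flies (0.97 ± 0.06, edgeR adjusted p = 2.61e-07) and nAChRalpha5 rose less (0.42 ± 0.04, edgeR adjusted p = 2.26e-05). Among GABA and glutamate receptor and transporter genes, 4 rose and 8 fell of 27 tested (44.4%), with GluClalpha, a glutamate-gated chloride channel gene, higher (0.32 ± 0.05, edgeR adjusted p = 0.000705) and GluRIB lower (-0.28 ± 0.04, edgeR adjusted p = 0.000542). Of microtubule and transport genes, 4 rose and 6 fell of 33 tested (30.3%), while 1 rose and 5 fell without TDP-43 replicate 2, TDP-43 replicate 3, control replicate 1 or control replicate 3. Map205, which encodes a microtubule-associated protein, changed most by p-value, to 52.8, 55.5 and 52.4 CPM in TDP-43 flies, against 118, 121 and 111 CPM in control flies (-1.12 ± 0.06, edgeR adjusted p = 1.48e-07).

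Of 15 neuron markers, 6 fell (40.0%), while 3 fell without TDP-43 replicate 2. The RNA-binding protein gene fne, active in neurons, was among those that fell, to 1224 ± 81.9 CPM in TDP-43 flies, against 1582 ± 33.2 CPM in control flies (-0.37 ± 0.06, edgeR adjusted p = 0.000655). Glial genes were called often and in both directions. Of the list of glia and the blood-brain barrier, 7 rose and 11 fell of 31 tested, or 58.1%. Mdr65 (3L, 6240500 to 6245746), which encodes a transporter that pumps drugs out at the blood-brain barrier, stood at 247, 276 and 282 CPM in TDP-43 flies, against 98.03, 103 and 115.4 CPM in control flies (1.35 ± 0.11, edgeR adjusted p = 1.16e-05). The receptor gene moody, needed to seal that barrier, rose too (0.58 ± 0.10, edgeR adjusted p = 0.00164). Inx2, a gap junction gene of glia, stood at 117, 121 and 117 CPM in TDP-43 flies, against 193, 197 and 204 CPM in control flies (-0.74 ± 0.04, edgeR adjusted p = 1.96e-07). The engulfment receptor gene drpr, used by glia to clear neuronal debris, rose (0.43 ± 0.06, edgeR adjusted p = 0.000266). Eaat2, a glutamate and taurine transporter gene, fell (-0.29 ± 0.04, edgeR adjusted p = 0.000333), as did Gs2, the glutamine synthetase gene (-0.29 ± 0.04, edgeR adjusted p = 0.000548). In Mdr65 and Inx2 the libraries of the groups were far apart. Among injury and cell death genes, 7 rose and 4 fell of 31 tested (35.5%), while 5 rose and 2 fell without TDP-43 replicate 2 or control replicate 3. Mmp1, a matrix metalloproteinase gene induced after injury, stood at 47.9, 53.3 and 46.3 CPM in TDP-43 flies, against 20.1, 18.1 and 16.9 CPM in control flies (1.42 ± 0.17, edgeR adjusted p = 0.000157), p53 rose (0.62 ± 0.11, edgeR adjusted p = 0.00147), and the stress gene Gadd45 fell (-1.04 ± 0.11, edgeR adjusted p = 3.57e-05).

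Apart from TBPH, genes of RNA-binding proteins that act with TDP-43 or Ataxin-2 changed by small amounts. Of 19 partner genes, 2 rose and 3 fell (26.3%), TBPH among them. The gene of the polyA-binding protein, pAbp, which Ataxin-2 binds, stood at 1326, 1241 and 1373 CPM in TDP-43 flies, against 1614, 1519 and 1547 CPM in control flies (-0.25 ± 0.05, edgeR adjusted p = 0.00643). The hnRNP gene glo rose (0.28 ± 0.05, edgeR adjusted p = 0.00086), and so did Hrb87F (0.24 ± 0.06, edgeR adjusted p = 0.0105). Of the RNA granule and hnRNP list, 4 rose and 10 fell of 39 tested, or 35.9%, while 3 rose and 6 fell without TDP-43 replicate 2. The splicing regulator gene heph stood at 613, 582 and 634 CPM in TDP-43 flies, against 746, 807 and 782 CPM in control flies (-0.35 ± 0.05, edgeR adjusted p = 0.000178), and the splicing factor gene B52 at 378, 395 and 398 CPM in TDP-43 flies, against 477, 507 and 476 CPM in control flies (-0.32 ± 0.04, edgeR adjusted p = 0.000208). Of the nuclear transport genes, 4 rose and 2 fell of 35 tested (17.1%). Fs(2)Ket, the importin beta gene, which carries proteins into the nucleus, stood at 404, 418 and 449 CPM in TDP-43 flies, against 202, 219 and 214 CPM in control flies (1.00 ± 0.06, edgeR adjusted p = 6.06e-07). Every TDP-43 library was above every control library, and the pore component gene Nup153 rose as well (0.59 ± 0.09, edgeR adjusted p = 0.00103).

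The share of members called differed among the protein quality control lists, from 5.26% of proteasome genes to 28.6% of vacuolar ATPase genes, against 22.5% of all genes. Of the Hsp70 family and its co-chaperones, 3 rose and 1 fell of 27 tested, or 14.8%. Hsp70Bb, an inducible chaperone gene, stood at 1001, 895 and 1045 CPM in TDP-43 flies, against 324, 261 and 273 CPM in control flies (1.78 ± 0.16, edgeR adjusted p = 3.65e-05). Hsp70Ba stood at 134, 97.8 and 141 CPM in TDP-43 flies, against 25.8, 19.8 and 21.8 CPM in control flies (2.46 ± 0.19, edgeR adjusted p = 1.62e-05). These near-identical copies can share reads, so the split between them is uncertain. With mCherry RNAi the change was 2.62 ± 0.16 for Hsp70Bb and 3.13 ± 0.20 for Hsp70Ba, and the difference between hairpins was not called (edgeR adjusted p = 0.126 and 0.262). Atg1 (3L, 12784429 to 12805116), the kinase gene that starts autophagy, stood at 508, 535 and 553 CPM in TDP-43 flies, against 199.8, 209 and 209 CPM in control flies (1.37 ± 0.04, edgeR adjusted p = 1.99e-09), with no overlap between the groups. Among autophagy and lysosome genes, 6 rose and 3 fell of 43 tested, or 20.9%, near the 22.5% of all genes, while 3 rose and 2 fell without TDP-43 replicate 1, control replicate 2 or control replicate 3. The lysosomal protease gene cathD rose (0.24 ± 0.05, edgeR adjusted p = 0.00408). LManII, a lysosomal mannosidase gene, stood at 101, 81.9 and 106 CPM in TDP-43 flies, against 260.1, 249 and 237 CPM in control flies (-1.37 ± 0.20, edgeR adjusted p = 0.00102), and Npc2a, of lysosomal sterol export, fell (-0.50 ± 0.07, edgeR adjusted p = 0.000359). Of the vacuolar ATPase subunit genes, 3 rose and 3 fell of 21 tested, or 28.6%, with the subunit gene Vha100-2 at 35.4, 43.4 and 36.9 CPM in TDP-43 flies, against 15.6, 15.9 and 15.8 CPM in control flies (1.29 ± 0.13, edgeR adjusted p = 3.08e-05). Among genes of the unfolded protein and integrated stress responses, 5 rose and 4 fell of 33 tested, or 27.3%, among them AsnS, the asparagine synthetase gene, which rose (0.80 ± 0.17, edgeR adjusted p = 0.0073). Of 38 proteasome genes, 2 fell (5.26%).

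The called genes of the translation machinery were lower in TDP-43 flies. Of 84 cytoplasmic ribosomal protein genes tested, 55 fell, or 65.5% against 22.5% of all genes, with a median of -0.26. With 1 library left out, 29 fell without TDP-43 replicate 2 and 33 fell without control replicate 1, and over all alternatives tried 29 to 71 fell. The fitted change was below 0 in 81 of the 84, against 5498 of all 10738 genes. In 59 of the 84 all TDP-43 libraries lay below all control libraries. Over all genes tested, the groups did not overlap, in 1 direction or the other, in 43.8%. RpS9 stood at 298, 264 and 281 CPM in TDP-43 flies, against 504, 427 and 427 CPM in control flies (-0.69 ± 0.07, edgeR adjusted p = 2.83e-05). RpL3 stood at 878, 864 and 908 CPM in TDP-43 flies, against 1261, 1124 and 1129 CPM in control flies (-0.41 ± 0.06, edgeR adjusted p = 0.000408), and RpL5 at 1016, 949 and 998 CPM in TDP-43 flies, against 1475, 1248 and 1266 CPM in control flies (-0.43 ± 0.06, edgeR adjusted p = 0.000517). The transcripts of all 88 listed genes made up 4.08%, 3.84% and 3.92% of counts in TDP-43 flies, against 5.03%, 4.25% and 4.51% in control flies. With mCherry RNAi the shares were 3.81%, 3.89% and 3.85% in TDP-43 flies, against 3.82%, 3.61% and 3.88% in control flies, so the control flies with Atx2 RNAi stood above the 9 other libraries. In the mCherry comparison, where 37.6% of all genes were called, 6 rose and 6 fell of the 84, with a median of 0.04. The fitted difference between hairpins was below 0 in 81 of the 84, against 5782 of all 10738 genes, with a median of -0.30 against -0.02 for all genes. By edgeR 0 of the 84 differences were called (0.428% of all genes were), with 57 at an unadjusted p under 0.05. With the replicate number as a block 6 were called, and by DESeq2 39, all of them below 0.

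Called genes of translation factors and of the mitochondrial genome were lower as well. Of 47 translation initiation and elongation genes, 19 fell, or 40.4%, with a median of -0.16. Among those that fell were genes of the initiation complex eIF3, which recruits the small ribosomal subunit to mRNA. Its subunit gene eIF3c stood at 146, 142 and 149 CPM in TDP-43 flies, against 204, 196 and 209.7 CPM in control flies (-0.48 ± 0.06, edgeR adjusted p = 0.000142), and eIF3m at 186, 188 and 200.3 CPM in TDP-43 flies, against 284, 249 and 272 CPM in control flies (-0.49 ± 0.06, edgeR adjusted p = 0.000137). The elongation factor gene eEF1alpha2 fell, with 972, 997 and 1031 CPM in TDP-43 flies, against 1326, 1287 and 1339 CPM in control flies (-0.40 ± 0.05, edgeR adjusted p = 0.000123). In the mCherry comparison, where 37.6% of all genes were called, 4 rose and 13 fell of the 47. The difference between hairpins had a median of -0.12 over the 47. By edgeR 0 of these differences were called, with 15 at an unadjusted p under 0.05, and DESeq2 called 1. Of the 13 genes of the mitochondrial genome, 5 fell (38.5%), with a median of -0.32, while 1 fell without TDP-43 replicate 2 or control replicate 1 and 3 fell without TDP-43 replicate 3 or control replicate 3. The complex I subunit gene mt:ND4 stood at 846, 678 and 777 CPM in TDP-43 flies, against 1174, 1013 and 1030.0 CPM in control flies (-0.48 ± 0.09, edgeR adjusted p = 0.0029), and it overlaps mt:ND4L on the same strand. In the mCherry comparison edgeR called 0 of the 13, with 1 at an unadjusted p under 0.05 and 1 called by DESeq2. The difference between hairpins had a median of -0.30 over the 13. By edgeR 0 of these differences were called, with 8 at an unadjusted p under 0.05. With the replicate number as a block 0 were called, and by DESeq2 7, all of them below 0. Of the nuclear respiratory chain genes, 7 fell of 66 tested (10.6%), while 4 fell without TDP-43 replicate 1, TDP-43 replicate 2, control replicate 1 or control replicate 3. Of 72 mitochondrial ribosomal protein genes edgeR called 0, with 9 at an unadjusted p under 0.05, while 1 was called by DESeq2 and 2 with the replicate number as a block.

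**Figure D2:**
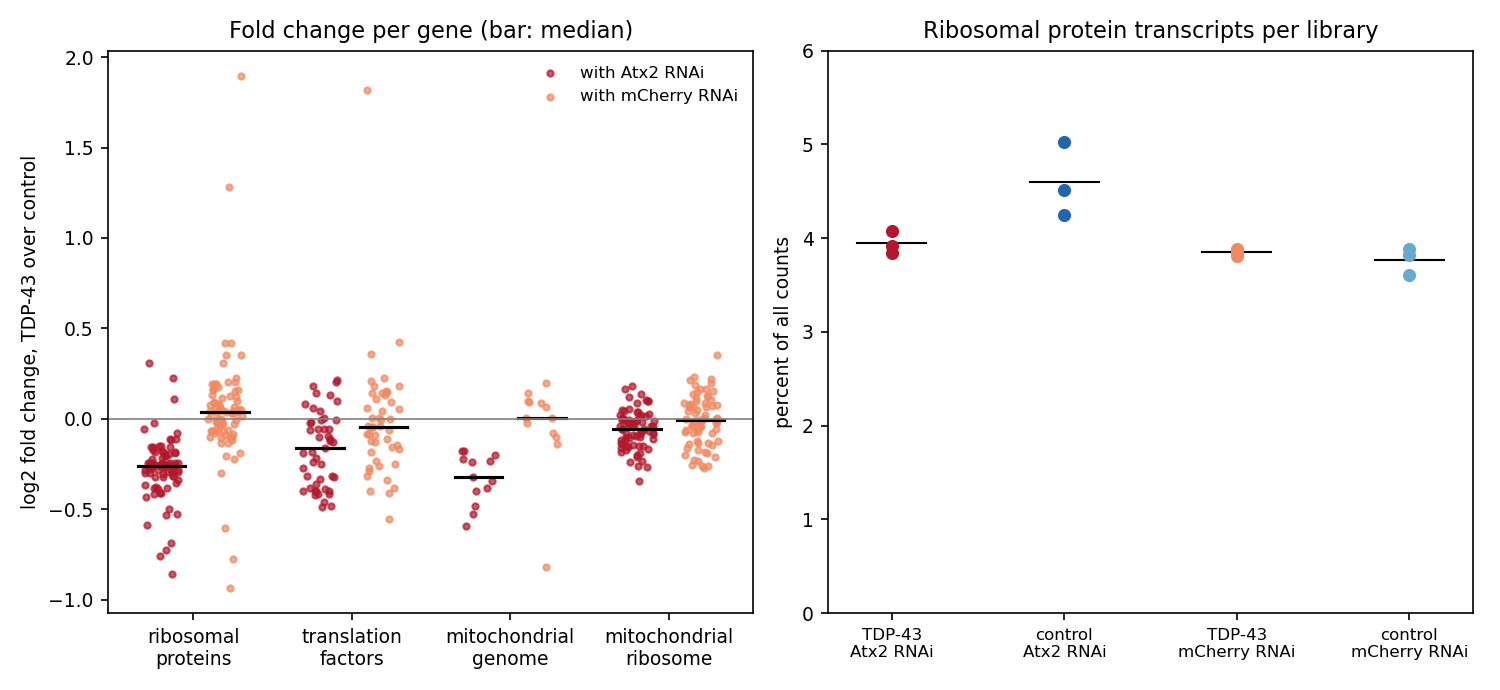
Left, log2 fold change of TDP-43 over control for each gene of 4 lists, with Atx2 RNAi in dark red and with mCherry RNAi in orange, and the list's median as a bar. Right, ribosomal protein transcripts as a percent of all counts in each library, with the mean as a bar. The ribosomal protein genes lie below 0 with Atx2 RNAi (median -0.26) and around 0 with mCherry RNAi (0.04), and the 3 control libraries with Atx2 RNAi have the highest shares, 4.25% to 5.03%.

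Most called genes of sugar breakdown were lower. Of glycolysis genes, 2 rose and 5 fell of 16 tested, or 43.8%, while 1 rose and 3 fell without TDP-43 replicate 2, TDP-43 replicate 3, control replicate 1 or control replicate 3. Pfk, which sets the pace of glycolysis, stood at 221, 223 and 235 CPM in TDP-43 flies, against 300.3, 291 and 295 CPM in control flies (-0.38 ± 0.05, edgeR adjusted p = 0.000171), and Tpi at 139, 151 and 149 CPM in TDP-43 flies, against 226, 209 and 203 CPM in control flies (-0.54 ± 0.08, edgeR adjusted p = 0.00035). Ldh, which makes lactate, stood apart with 12.1, 9.94 and 10.6 CPM in TDP-43 flies, against 5.18, 4.59 and 5.01 CPM in control flies (1.14 ± 0.14, edgeR adjusted p = 0.000115). Treh, which splits trehalose, the main sugar of fly blood, fell to 441 ± 11.9 CPM in TDP-43 flies, against 649.5 ± 46.5 CPM in control flies (-0.56 ± 0.09, edgeR adjusted p = 0.000812). Of the pyruvate and citric acid cycle genes, 1 rose and 6 fell of 30 tested (23.3%), while 1 rose and 3 fell without TDP-43 replicate 1 and 1 rose and 2 fell without TDP-43 replicate 2, control replicate 1 or control replicate 3. Men-b, a malic enzyme gene, fell (-0.32 ± 0.05, edgeR adjusted p = 0.000442). Of the genes of lipid synthesis and storage, 5 rose of 39 tested (12.8%). Those that rose include mgl, an endocytic receptor gene of the megalin type, at 613, 627 and 633 CPM in TDP-43 flies, against 336, 372 and 332 CPM in control flies (0.85 ± 0.11, edgeR adjusted p = 0.000217), and Hnf4, a nuclear receptor gene that responds to fatty acids (0.84 ± 0.12, edgeR adjusted p = 0.000492).

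Enzymes that clear foreign compounds showed some of the largest changes in single genes. Of glutathione S-transferases, 2 rose and 7 fell of 32 tested, or 28.1%. GstD9 (3R, 12366163 to 12367564) stood at 21.8, 18.9 and 26.4 CPM in TDP-43 flies, against 142, 136 and 154 CPM in control flies (-2.68 ± 0.10, edgeR adjusted p = 7.41e-09). GstD3 fell (-1.05 ± 0.10, edgeR adjusted p = 1.47e-05) and GstD10, of the same cluster, rose (2.16 ± 0.20, edgeR adjusted p = 1.16e-05). Of UDP-glycosyltransferases, 7 rose and 3 fell of 24 tested, or 41.7%. Ugt35B1 stood at 58.01, 56.7 and 54.0 CPM in TDP-43 flies, against 142, 139.9 and 147 CPM in control flies (-1.35 ± 0.05, edgeR adjusted p = 6.22e-09), Ugt35C1 at 2.71, 3.80 and 3.46 CPM in TDP-43 flies, against 28.9, 27.0 and 29.8 CPM in control flies (-3.10 ± 0.14, edgeR adjusted p = 3.99e-08), and Ugt317A1 at 28.9, 24.5 and 23.4 CPM in TDP-43 flies, against 6.80, 8.35 and 8.46 CPM in control flies (1.70 ± 0.10, edgeR adjusted p = 4.38e-07). Of cytochrome P450 genes, 6 rose and 6 fell of 73 tested (16.4%), with Cyp6a20, a gene linked to aggression, lower (-1.65 ± 0.25, edgeR adjusted p = 0.00102). Some members of these families are close copies, and their reads could be split between them. Of the antioxidant genes, 1 rose and 6 fell of 28 tested (25.0%), while 1 rose and 2 fell without TDP-43 replicate 2 and 1 rose and 3 fell without control replicate 1. Irc, a peroxidase gene, stood at 378, 388 and 414 CPM in TDP-43 flies, against 125, 116 and 119.6 CPM in control flies (1.71 ± 0.07, edgeR adjusted p = 1.88e-08). Sod3, an extracellular superoxide dismutase gene, stood at 65.0, 61.9 and 64.7 CPM in TDP-43 flies, against 159, 158 and 189.7 CPM in control flies (-1.40 ± 0.18, edgeR adjusted p = 0.000438).

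**Figure D3:**
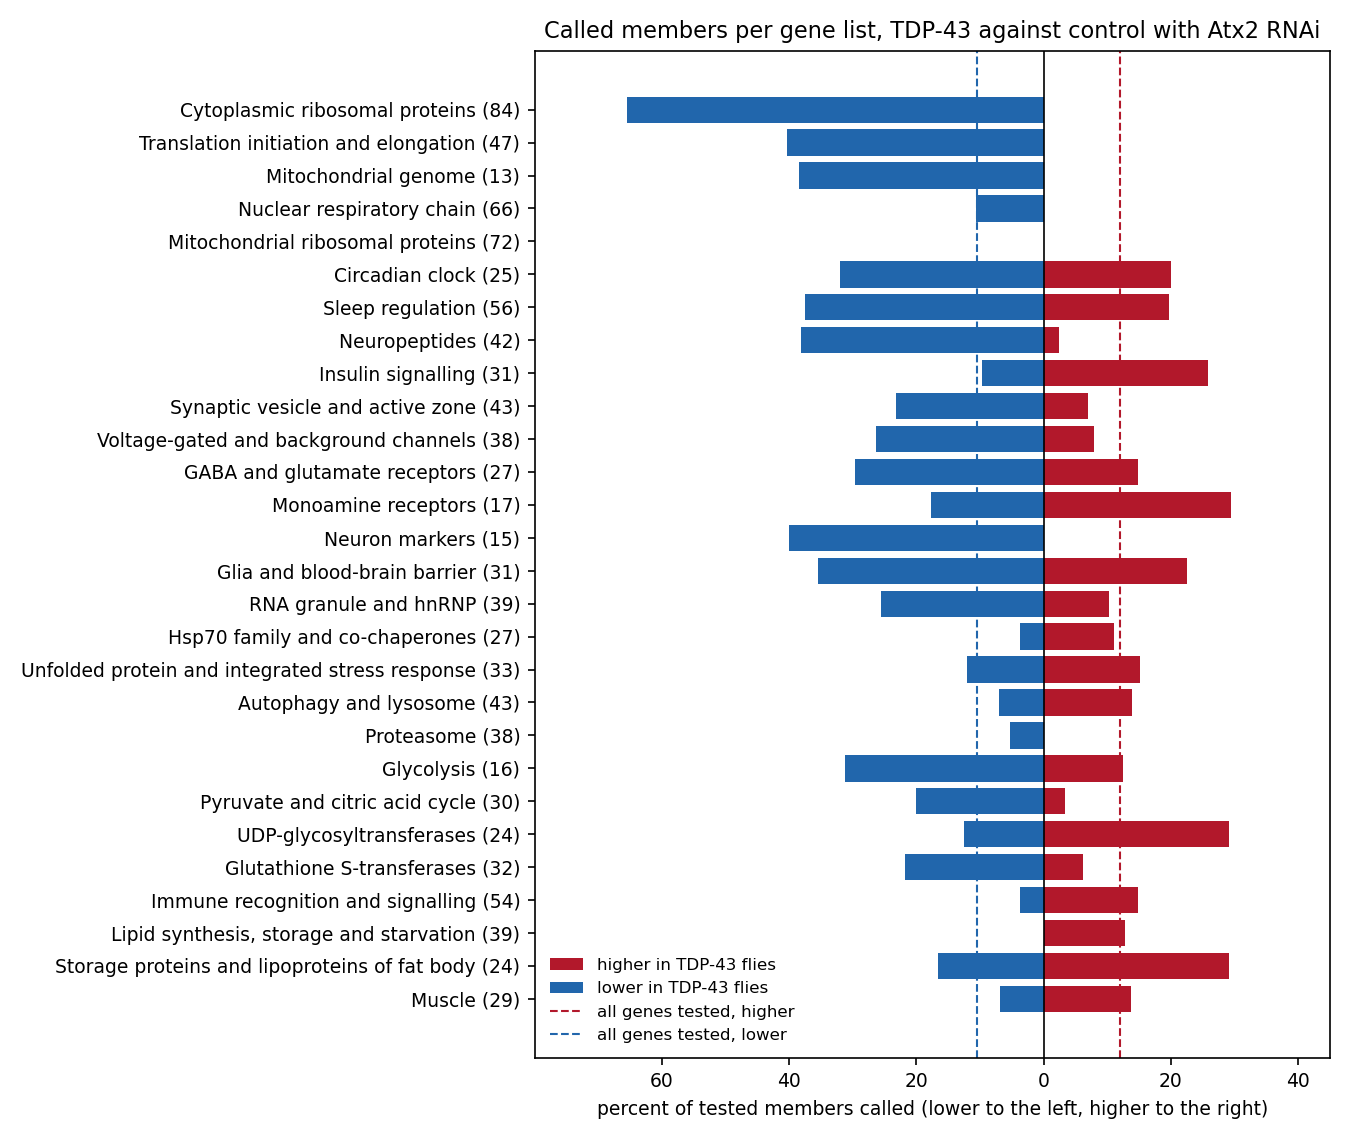
Percent of tested members called in 28 gene lists, higher in TDP-43 flies to the right and lower to the left, with the number of tested members in brackets and the percent over all genes tested as broken lines (12.1% higher, 10.4% lower). Ribosomal protein, translation factor, mitochondrial genome and neuron marker genes were called in 1 direction, clock, sleep and glial genes in both.

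Genes of tissues outside the nervous system also rose, some by a wide margin. Yp1 (X, 10053811 to 10055498), a yolk protein gene of the female fat body, stood at 1394, 470.1 and 854 CPM in TDP-43 flies, against 0.523, 7.62 and 5.91 CPM in control flies (7.63 ± 1.06, edgeR adjusted p = 0.00122). Yp2 stood at 767, 237 and 519 CPM in TDP-43 flies, against 0.951, 7.03 and 3.47 CPM in control flies (7.10 ± 0.95, edgeR adjusted p = 0.000996) and Yp3 at 906, 284 and 559 CPM in TDP-43 flies, against 2.50, 12.5 and 2.44 CPM in control flies (6.69 ± 0.93, edgeR adjusted p = 0.00122). In all 3 every TDP-43 library was far above every control library, and replicate 1 was highest in the TDP-43 group. The female-biased gene fit stood at 22.2, 5.03 and 10.6 CPM in TDP-43 flies, against 0.0713, 0.313 and 0.476 CPM in control flies (5.49 ± 0.95, edgeR adjusted p = 0.00373). With the replicate number as a block in the 6 libraries, the edgeR adjusted p was 0.0668 for Yp1, 0.0585 for Yp2, 0.0771 for Yp3 and 0.053 for fit. All flies are labelled male, and the male-specific RNA lncRNA:roX1 stood at 4210.0, 4290.0 and 4729 CPM in TDP-43 flies, against 5483, 4891 and 4975 CPM in control flies (-0.21 ± 0.06, edgeR adjusted p = 0.022), a call that was lost without TDP-43 replicate 1 or 2 or control replicate 1 (edgeR adjusted p = 0.0793 to 0.0899). Among genes of fat body storage and lipoproteins, 7 rose and 4 fell of 24 tested, or 45.8%. Over all alternatives tried, 3 to 8 of them rose and 2 to 5 fell. The larval storage protein gene Lsp1beta fell, to 0.563 ± 0.0509 CPM in TDP-43 flies, against 5.07 ± 1.75 CPM in control flies (-3.15 ± 0.54, edgeR adjusted p = 0.00346). Of the list of yolk proteins and fit, 5 rose of 8 tested (62.5%), and 1 to 5 over all alternatives. Yp1 belongs to this list and to that of fat body storage, so their counts are not separate. The summed fat body markers were higher in every TDP-43 library than in any control library. Yp1, Yp2, Yp3 and fit are part of that sum, so it is not a separate measure. The part of fat body tissue in these rises was not tested.

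Of 29 muscle genes, 4 rose and 2 fell (20.7%, near the share of all genes), with a median of 1.26, while 2 rose and 1 fell without TDP-43 replicate 1, TDP-43 replicate 3 or control replicate 1 and 1 rose and 1 fell without control replicate 3. By DESeq2 15 rose and 2 fell. In 19 of the 29 all TDP-43 libraries lay above all control libraries, and in 4 all lay below. Of all genes tested, 43.8% did not overlap in either direction. Act79B, a muscle actin gene, stood at 7.44, 4.34 and 6.61 CPM in TDP-43 flies, against 26.9, 29.8 and 32.3 CPM in control flies (-2.28 ± 0.16, edgeR adjusted p = 3.21e-06). TpnC4, a troponin C gene of flight muscle, stood at 2.01, 1.76 and 1.78 CPM in TDP-43 flies, against 0.119, 0 and 0 CPM in control flies (edgeR adjusted p = 0.00014), with control flies at or near the level of 3 counts. Summed muscle markers ran from 171.5 to 313.3 CPM in TDP-43 flies and from 111.9 to 171.7 CPM in control flies, and their part in these changes was not tested. Of immune recognition and signalling genes, 8 rose and 2 fell of 54 tested (18.5%), while 5 rose and 1 fell without control replicate 3. In the Toll pathway the transcription factor gene dl (1.23 ± 0.17, edgeR adjusted p = 0.000276), the adaptor gene Myd88 (1.21 ± 0.16, edgeR adjusted p = 0.000308) and the inhibitor gene cact (0.22 ± 0.04, edgeR adjusted p = 0.00197) rose. Of 27 antimicrobial peptide genes, 2 rose (7.41%, against 22.5% of all genes), with AttA at 5.71, 3.23 and 3.35 CPM in TDP-43 flies, against 0.927, 0.905 and 0.896 CPM in control flies (2.16 ± 0.37, edgeR adjusted p = 0.00195). Of hemocyte genes, 4 rose of 17 tested (23.5%), among them SPARC, a basement membrane gene (0.95 ± 0.13, edgeR adjusted p = 0.000555). Of ecdysone and juvenile hormone genes, 4 rose and 3 fell of 27 tested (25.9%), with Jheh2, which breaks juvenile hormone down, at 34.8, 41.1 and 34.2 CPM in TDP-43 flies, against 98.6, 94.4 and 95.5 CPM in control flies (-1.39 ± 0.11, edgeR adjusted p = 3.95e-06). Photoreceptor genes had 2 higher and 4 lower calls of 46. Of 18 gut and salivary enzyme genes 1 was called, higher, with 2 when the replicate number was a block. Both lists had a share below the 22.5% of all genes.

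Of genes in none of these lists, N, wts and mnb, chosen after their values were seen, also rose. N (X, 3134870 to 3172221), the Notch receptor gene, stood at 408, 417 and 442 CPM in TDP-43 flies, against 77.9, 82.6 and 79.8 CPM in control flies (2.40 ± 0.09, edgeR adjusted p = 1.37e-08). The kinase gene wts, which restrains growth in the Hippo pathway, stood at 339, 324 and 325 CPM in TDP-43 flies, against 111, 116 and 105 CPM in control flies (1.58 ± 0.07, edgeR adjusted p = 3.37e-08), and the kinase gene mnb, the fly counterpart of DYRK1A, at 197, 189 and 204 CPM in TDP-43 flies, against 84.4, 88.9 and 83.6 CPM in control flies (1.20 ± 0.04, edgeR adjusted p = 2.54e-09). In all 3 each TDP-43 library was above each control library. With mCherry RNAi the changes were 1.93 ± 0.09 for N, 1.61 ± 0.07 for wts and 1.42 ± 0.04 for mnb, and the differences between hairpins were not called (edgeR adjusted p = 0.122, 0.908 and 0.116).

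Genes with the smallest p-values or the widest gaps included NimA (2L, 13957539 to 13963381), of the Nimrod family of phagocytic receptors, at 69.4, 63.1 and 58.9 CPM in TDP-43 flies, against 1.02, 1.22 and 1.04 CPM in control flies (5.87 ± 0.16, edgeR adjusted p = 8.63e-10). Cht2, a chitinase gene, stood at 52.1, 47.0 and 56.6 CPM in TDP-43 flies, against 0.381, 0.452 and 0.420 CPM in control flies (6.96 ± 0.23, edgeR adjusted p = 7.44e-09). Ns4, of the nucleostemin family of GTPases, stood at 129, 141 and 139 CPM in TDP-43 flies, against 21.4, 20.5 and 24.7 CPM in control flies (2.62 ± 0.07, edgeR adjusted p = 6.42e-10). In these 3 the TDP-43 libraries lay close together and far above the control libraries. mthl8 (3L, 22428 to 26308), of the methuselah-like receptor family, stood at 0.123, 0.0237 and 0.129 CPM in TDP-43 flies, against 61.2, 60.6 and 61.9 CPM in control flies (edgeR adjusted p = 6.75e-07), at or near 3 counts in TDP-43 flies. CG6654, a gene with no name, stood at 15.9, 14.3 and 14.7 CPM in TDP-43 flies, against 78.2, 73.7 and 72.1 CPM in control flies (-2.32 ± 0.06, edgeR adjusted p = 2.9e-10). Mdr49, another drug transporter gene, stood at 19.99, 20.3 and 26.6 CPM in TDP-43 flies, against 74.2, 85.9 and 106 CPM in control flies (-1.99 ± 0.18, edgeR adjusted p = 4.28e-05). All 3 were lower in every TDP-43 library. The changes with mCherry RNAi were 6.15 ± 0.17 for NimA, 6.90 ± 0.23 for Cht2, 2.53 ± 0.07 for Ns4, -2.31 ± 0.06 for CG6654 and -2.02 ± 0.18 for Mdr49. There mthl8 averaged 0.0473 CPM in TDP-43 flies and 62.5 CPM in control flies. None of the 6 was called in the difference between hairpins (edgeR adjusted p from 0.607 to 0.983).

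The mCherry comparison shares no library with the Atx2 comparison. In the fit of all 12 libraries 2413 of 10738 genes were called with Atx2 RNAi, and 4035 with mCherry RNAi (37.6%), 2067 higher and 1968 lower. Which comparison had more calls depended on the fit. In fits of each comparison's own 6 libraries the counts were 2782 with Atx2 RNAi and 2853 with mCherry RNAi, and with the replicate number as a block in those fits, added after seeing the data, they were 3372 with Atx2 RNAi and 3230 with mCherry RNAi. In the fit of all 12 libraries 1920 genes were called in both comparisons, which is 79.6% of the calls with Atx2 RNAi and 47.6% of those with mCherry RNAi. Of these, 1915 had the same sign, and 5 had opposite signs, namely CG6356, Dhod, piwi, repo and RpS21. With Atx2 RNAi, the calls of the first 3 and of RpS21 were lost with some 1 library left out, for CG6356 without TDP-43 replicate 3 (edgeR adjusted p = 0.0552), and for Dhod (up to 0.171), piwi (up to 0.09) and RpS21 (up to 0.162) without most of the 6 libraries. Across genes, which are not independent replicates, the log2 fold changes of the 10738 genes had a Pearson's r of 0.734 and a Spearman's rho of 0.686. Among the 1915 genes called in both with the same sign, the size was smaller with Atx2 RNAi in 66.4%, and over all genes tested in 63.5%. The median size over all genes was 0.18 with Atx2 RNAi and 0.24 with mCherry RNAi. A call under 1 hairpin and not the other does not show a difference, so the difference itself was tested. It was called in 46 of 10738 genes (0.428%), 28 with a higher and 18 with a lower log2 fold change under Atx2 RNAi, and 1636 genes had an unadjusted p under 0.05. The count was 138 with the replicate number as a block and 533 by DESeq2. With 1 library left out it was 10 to 39, with 10 without TDP-43 replicate 2, 11 without TDP-43 replicate 3, 19 without control replicate 1, 26 without control replicate 2 and 19 without control replicate 3. In 35 of the 46 the change was smaller under Atx2 RNAi and in 11 it was larger.

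**Figure D4:**
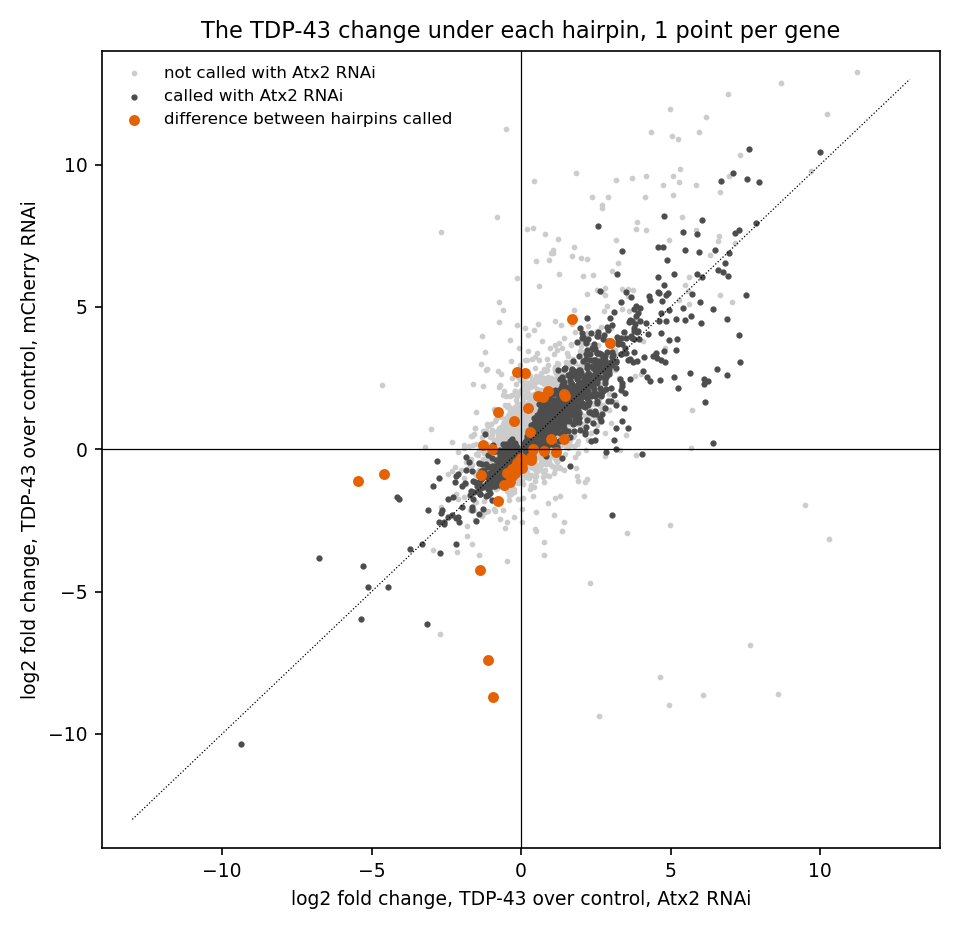
Log2 fold change of TDP-43 over control with Atx2 RNAi (horizontal) and with mCherry RNAi (vertical), 1 point per gene tested, with the line of equal change dotted. Dark points are the genes called with Atx2 RNAi, and the 46 genes whose change differed between hairpins are orange.

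The difference was called under every alternative that gave an adjusted p in 10 of these genes. A neighbouring pair of them, asRNA:CR45600 and CG6912, overlaps on the same strand of 3R only from 15136985 to 15137004, so reads there may be shared. The antisense RNA gene asRNA:CR45600 (3R, 15136985 to 15140121) stood at 2.75, 3.01 and 3.10 CPM in TDP-43 flies, against 124, 135 and 126 CPM in control flies with Atx2 RNAi (-5.44 ± 0.08, edgeR adjusted p = 1.22e-12). It stood at 83.4, 88.6 and 93.3 CPM in TDP-43 flies with mCherry RNAi, against 188, 205 and 177 CPM in control flies with mCherry RNAi. The difference of the changes was -4.34 ± 0.10 (edgeR adjusted p = 2.32e-10). CG6912 (3R, 15135138 to 15137004) stood at 3.06, 2.42 and 2.92 CPM in TDP-43 flies, against 68.7, 64.5 and 65.5 CPM in control flies with Atx2 RNAi and at 69.2, 56.5 and 53.5 CPM in TDP-43 flies with mCherry RNAi, against 114, 113 and 103.7 CPM in control flies with mCherry RNAi, with a difference of -3.69 ± 0.14 (edgeR adjusted p = 4.39e-08). Both were at 2.42 to 3.10 CPM in the flies that carried both TDP-43 and the Atx2 hairpin, and over 50 CPM in every other library. The antisense RNA gene asRNA:CR45822 stood at 7.90 ± 0.767 CPM in TDP-43 flies, against 15.02 ± 0.972 CPM in control flies with Atx2 RNAi, and at 0.0166 ± 0.0148 CPM in TDP-43 flies, against 8.78 ± 1.06 CPM in control flies with mCherry RNAi. asRNA:CR45835 stood at 10.2 ± 1.18 CPM in TDP-43 flies, against 22.1 ± 0.322 CPM in control flies with Atx2 RNAi, and at 0.0737 ± 0.0268 CPM in TDP-43 flies, against 12.7 ± 1.31 CPM in control flies with mCherry RNAi. Both were lower in TDP-43 flies under either hairpin, and with mCherry RNAi the TDP-43 libraries were at or below 3 counts for both.

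CG5830 (3L, 15992669 to 16004736) stood at 221, 201 and 218 CPM in TDP-43 flies, against 96.7, 97.2 and 90.6 CPM in control flies with Atx2 RNAi (1.17 ± 0.05, edgeR adjusted p = 2.43e-08), and at 244, 256 and 262 CPM in TDP-43 flies with mCherry RNAi, against 271, 276 and 257 CPM in control flies with mCherry RNAi. The control flies with Atx2 RNAi were lowest, and the other 3 groups lay between 200.6 and 276.1 CPM. The difference of the changes was 1.25 ± 0.07 (edgeR adjusted p = 1.92e-06). Mis12, a kinetochore gene, stood at 16.7 ± 1.65 CPM in TDP-43 flies, against 6.21 ± 0.358 CPM in control flies with Atx2 RNAi, and at 23.7 ± 2.52 CPM in TDP-43 flies, against 18.4 ± 1.36 CPM in control flies with mCherry RNAi, with a difference of 1.06 ± 0.14 (edgeR adjusted p = 0.00953). ImpE1, a gene induced by ecdysone, stood at 47.2, 56.1 and 59.0 CPM in TDP-43 flies, against 32.6, 33.0 and 29.8 CPM in control flies with Atx2 RNAi, and at 31.3, 34.5 and 32.5 CPM in TDP-43 flies with mCherry RNAi, against 33.5, 35.4 and 33.8 CPM in control flies with mCherry RNAi. It was higher in the 3 libraries that combined TDP-43 with Atx2 RNAi than in the 9 others, and its difference was 0.83 ± 0.11 (edgeR adjusted p = 0.00953). The glial gene axo fell under both hairpins, to 296 ± 7.33 CPM in TDP-43 flies, against 379 ± 8.81 CPM in control flies with Atx2 RNAi and to 178 ± 19.2 CPM in TDP-43 flies, against 397 ± 14.9 CPM in control flies with mCherry RNAi. Its fall was smaller with Atx2 RNAi, with a difference of 0.80 ± 0.09 (edgeR adjusted p = 0.0039). Nepl5, of the neprilysin-like family, also fell less with Atx2 RNAi (difference 1.02 ± 0.12, edgeR adjusted p = 0.00419), and CG8908 rose less (difference -2.88 ± 0.33, edgeR adjusted p = 0.0039). The glial identity factor gene repo stood at 143 ± 11.2 CPM in TDP-43 flies, against 113 ± 7.73 CPM in control flies with Atx2 RNAi (0.34 ± 0.07, edgeR adjusted p = 0.00346) and at 119.8 ± 2.96 CPM in TDP-43 flies, against 144 ± 8.36 CPM in control flies with mCherry RNAi (-0.26 ± 0.07, edgeR adjusted p = 0.00876). It was thus higher in TDP-43 flies with Atx2 RNAi and lower in TDP-43 flies with mCherry RNAi. The call of its difference, 0.60 ± 0.09 (edgeR adjusted p = 0.0189), was lost without TDP-43 replicate 2 or 3 or control replicate 1 or 3 (0.0654 to 0.0886). The piRNA pathway gene piwi, at under 4 CPM in every library, was lower in TDP-43 flies with Atx2 RNAi and higher in TDP-43 flies with mCherry RNAi, with a difference of -2.09 ± 0.30 (edgeR adjusted p = 0.0137). That call was lost without TDP-43 replicate 2 or 3 or control replicate 3 (0.0529 to 0.0607).

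**Figure D5:**
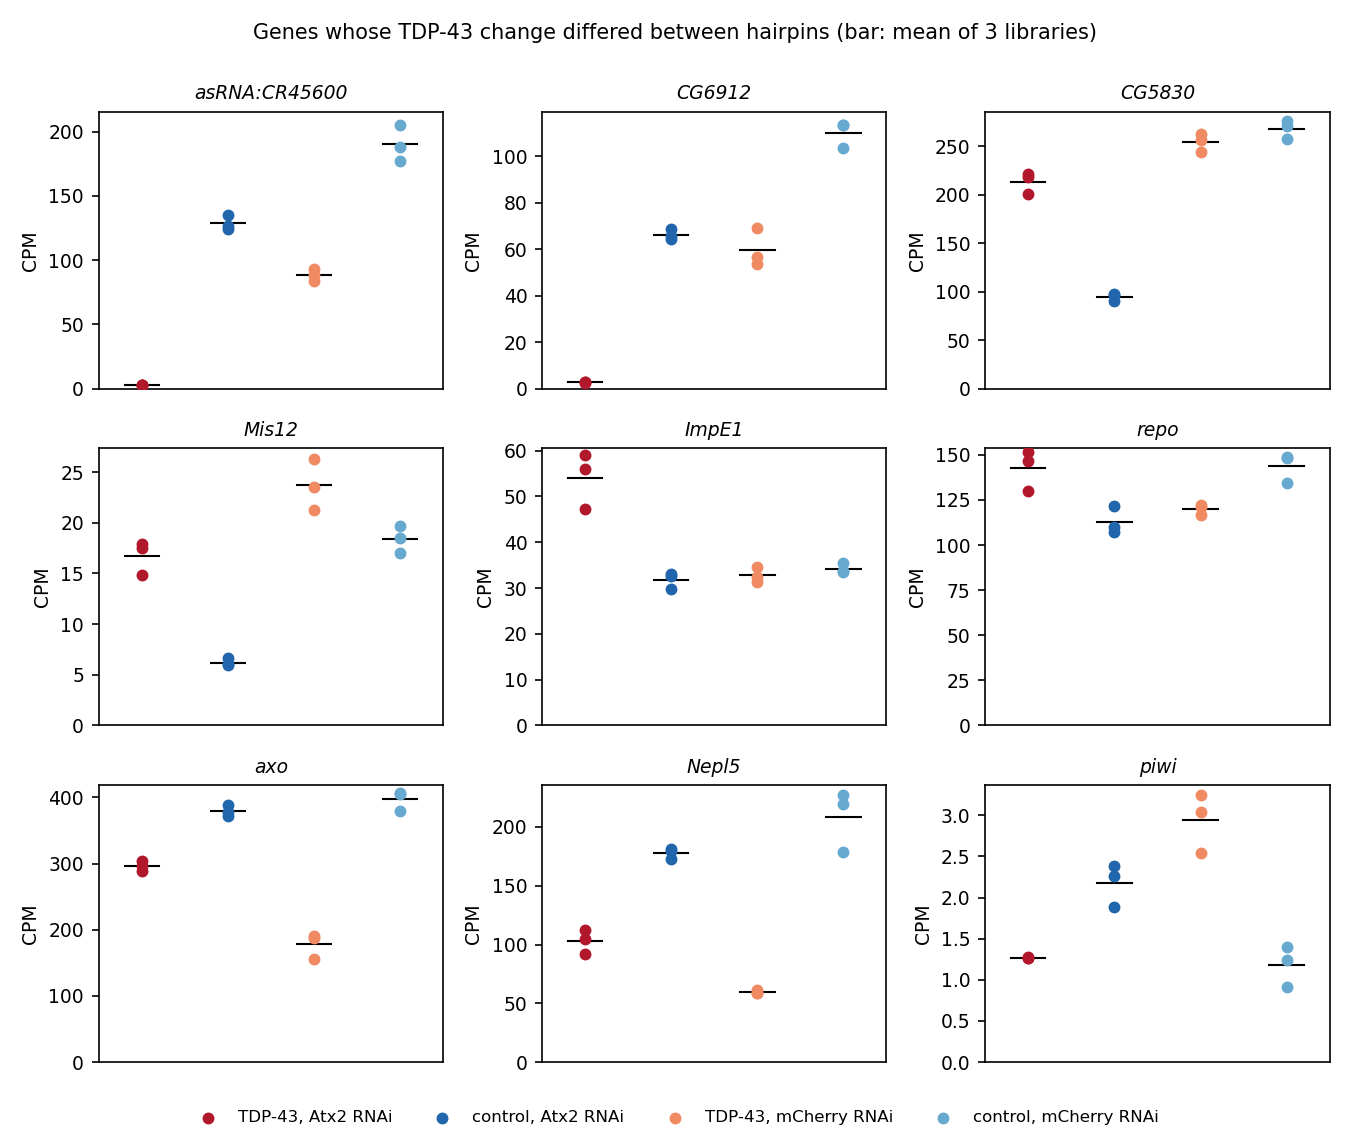
CPM of 9 genes whose TDP-43 change differed between hairpins, in each library of the 4 groups, with the mean of 3 libraries as a bar and axes starting at 0. asRNA:CR45600 and CG6912 are near 0 only in TDP-43 flies with Atx2 RNAi, CG5830 and Mis12 are lowest in control flies with Atx2 RNAi, and ImpE1 is highest in TDP-43 flies with Atx2 RNAi.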

How the data were processed

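Fly brain polyA RNA was sequenced in 12 libraries, 3 in each of 4 groups. The deposited values are raw counts per gene, which the authors made by trimming with Trim Galore, aligning to dm6 with STAR 2.7.3a and using SAMtools, per the submitters' processing notes. DESeq2 is also named there. The counting tool and its strand setting are not given in the sources used here, so overlapping and antisense genes are uncertain.

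From the counts, edgeR 4.0.16 was run in R 4.3.3 with trimmed-mean scaling, the filterByExpr filter, robust quasi-likelihood fits of 4 group means to all 12 libraries (8 residual degrees of freedom) and Benjamini-Hochberg adjustment over 10738 genes. SE is the size of the log2 fold change divided by the square root of F. The difference between hairpins is the change with Atx2 RNAi minus that with mCherry RNAi. Alternatives were other scalings, no filter, DESeq2 1.42.0, the 6 libraries alone, a replicate block, and leaving out each library. Tested on simulated data for the comparison with Atx2 RNAi, 10577 genes gave recovery of 46.2%, 62.7% and 89.4% of 1.5-, 2- and 4-fold changes, with 2.24% false calls. Only 65, 67 and 66 genes were changed there and 134 called, with no tissue differences between libraries. The rates in the real data may therefore differ. Same-numbered TDP-43 and control libraries with Atx2 RNAi deviated together from their group means (correlations 0.291, 0.399 and 0.144), and this is the only source of the pairing. Other pairs of groups were uneven. TDP-43 libraries of the 2 hairpins gave 0.252, 0.623 and 0.193, and control libraries of the 2 hairpins -0.149, -0.1 and -0.333. TDP-43 and control libraries with mCherry RNAi gave 0.051, -0.101 and 0.34. The block in all 12 libraries takes numbers as shared by all 4 groups, which these values do not show. No 2 libraries were identical. Counting error alone sets a floor of 3 counts, which is 0.0712 to 0.104 CPM in the 6 libraries.

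The comparison and the gene lists were chosen with earlier results of these data known, and some misassigned symbols were removed from 3 lists (P450, glia, respiratory chain) after values were seen. Genes were matched to FlyBase by symbol (17495 of 17562, 648 by an older symbol). Genes were named if called with no overlap between groups and among the largest changes, the smallest p-values, the 5 smallest p-values of a list, or the 10 smallest each way for the difference, and Atx2, TBPH, w and y were named in any case. The rule also allowed for v and for the uncalled members of each list with the highest levels, which are left out here. Chosen after their values were seen were Clk, cyc, cwo, Pdf, Mip, Tk, REPTOR, unc80, Gs2, moody, lncRNA:roX1, N, wts, mnb, Dhod, RpS21 and repo. Sequences were not used here.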

Additional observations from a re-analysis of the deposited data

Results flagged for a closer look

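The change between TDP-43 and control flies differed between the Atx2 and mCherry hairpins in 46 genes by edgeR's test of the difference itself (adjusted p below 0.05). Of these, 35 were called with Atx2 RNAi, 41 with mCherry RNAi and 30 with both. The difference is the log2 fold change with Atx2 RNAi minus that with mCherry RNAi. It was lower than 0 for asRNA:CR45600 (-4.34), CG6912 (-3.69), CG8908 (-2.88) and piwi (-2.09). Differences above 0 were 1.25 for CG5830, 1.06 for Mis12, 1.02 for Nepl5, 0.83 for ImpE1, 0.80 for axo and 0.60 for repo. The fitted differences of 7.79 for asRNA:CR45822 and 6.30 for asRNA:CR45835 depend on the prior count, since the TDP-43 libraries with mCherry RNAi were at or below 3 counts. The causes of these differences were not tested.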

How the results depend on the processing

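Of the 2413 genes called with Atx2 RNAi, 2336 were called under relative-log size factors, 2131 under upper-quartile scaling, 2390 by DESeq2, 2061 with no filter on low counts, 2244 in a fit of the 6 libraries alone and 2266 with the replicate number as a block. That block called 2540 genes. A block in the 6 libraries alone, added after seeing the data, called 3372. Over the libraries left out, 1616 to 1813 genes were called, 935 to 1021 higher and 661 to 810 lower. Of the 2413 genes, 1581 to 1754 stayed called in those fits. With mCherry RNAi 4035 genes were called, 2853 in a fit of its 6 libraries alone and 3230 with a block there, so that the comparison with fewer calls was not the same in every fit. The count of differences between hairpins was 533 by DESeq2, 138 with the replicate block, and 10 to 39 with a library left out, against 46. Other scalings and the absence of a filter gave 40 to 47. The fits that left a library out also had fewer libraries, and the cause of these changes in count was not tested. Of the 130 genes named in the report, 128 were called and 116 of these stayed called under every alternative run that gave an adjusted p, with no change of direction. Most of the named genes were picked for small p-values or large changes, so this share does not stand for all 2413 calls. The block ended the calls of cwo and RpS21 (edgeR adjusted p = 0.071 and 0.0678) and, in the 6 libraries, those of y, Yp1, Yp2, Yp3 and fit, and it changed no other call of a named gene. Scaling moved the median of all genes to between -0.01 and 0.01. Simulated 1.5-fold changes were recovered in 46.2% of genes at this depth, in a simulation with far fewer changed genes than were called here. An uncalled gene may still have changed by that much.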
